A study of Mus musculus with 9 samples.

Results

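Alcohol dehydrogenases and aldehyde dehydrogenases are the paired enzyme families with which liver removes alcohols and aldehydes. An alcohol dehydrogenase uses NAD to turn an alcohol into an aldehyde, and an aldehyde dehydrogenase turns that aldehyde into an acid, as in the path from ethanol through acetaldehyde to acetate. Beyond ethanol, the same families handle retinol and retinal, formaldehyde, fatty aldehydes, and intermediates of folate and tryptophan breakdown, and hepatocytes are the main site of many of them. The genes followed here were the 10 members Adh1, Adh4, Adh5, Aldh1a1, Aldh1a7, Aldh1b1, Aldh1l1, Aldh2, Aldh3a2, and Aldh8a1. The choice was by name, with earlier results of these data already known. Counts of members below therefore describe these genes and do not test the families. They were 10 of the 24341 genes in the expression table, and all 10 passed the filter on low values that left 13807 genes for testing.

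Expression was measured in bulk liver from 9 wild-type (WT) mice labelled C57BL/6 (C57BL/6J in the study's general methods), collected 48 hours after treatment. The 3 anti-CD40 mice (mice 2, 5, and 9) had received FGK45, an antibody that activates the receptor CD40. The 6 control mice (mice 3, 4, 7, 8, 11, and 12) are labelled PBS, a buffer without antibody. The labels give no age for either group, and the study's general methods give 8 to 12 weeks unless otherwise indicated. According to the study's methods, some treated mice whose B cells in blood did not fall were excluded across its experiments. Whether any were left out here is not stated. The sequencing was a single experiment, so the p-values measure the spread between these mice. Libraries were made with QuantSeq 3′, a kit that sequences the 3′ end of transcripts, and values are FPKM, the number of fragments divided by transcript length and by library size. Because a 3′ read does not become more frequent with transcript length, levels are not compared here between genes. They are compared between mice, for the same gene or for the same list of genes summed. Such a sum weighs its highest genes most.

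After anti-CD40, 9 of the 10 members fell and none rose, at a limma adjusted p under 0.05. Over all genes tested, 21.7% were called lower and 23.5% higher. The median log2 fold change of the members was -1.33, beside 0.0056 for all genes tested. Among the 10155 genes at a mean of 1 FPKM or more, where all members lay, 26.6% were called lower. Adh1, the main ethanol-oxidizing enzyme, fell to 24.5% of its control mean, the lowest share among the members, and Aldh1a7, a close relative of the retinal-oxidizing enzyme Aldh1a1, was the member not called. In the same 9 members every anti-CD40 mouse was below every control mouse, a pattern seen in 19.6% of all genes tested.

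The members sit in 2 clusters and at single positions elsewhere, given in mm10 as the expression table places them. Adh1 (chr3:138277645-138290691), Adh4 (chr3:138415497-138430892), and Adh5 (chr3:138437200-138455499) lie within 178 kb. Adh6a and Adh6-ps1, which are not among the members, lie between Adh1 and Adh4, and Adh7 lies before Adh1. Aldh1a1 (chr19:20601982-20643462) and Aldh1a7 (chr19:20692953-20727556) are neighbors 49.5 kb apart. The others are Aldh1b1 (chr4:45799022-45804608), Aldh1l1 (chr6:90550848-90599171), Aldh2 (chr5:121566027-121593824), Aldh3a2 (chr11:61244752-61267186), and Aldh8a1 (chr10:21377300-21396578). All are annotated as protein coding in GENCODE vM21, and none shares its position in the expression table with another gene. The first-listed transcript of Aldh1b1 has 2 exons, and that of Aldh1l1 has 23.

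Sequence upstream of the start site was read from RefSeq (GRCm38.p6) for 9 of the 10 members, as 250 bases before the start. The windows below are shown because they hold letters that recur among the members. The first 3 hold the octamer ATGCAAAT, in capitals, and belong to Aldh1a1 (its second listed start, chr19:20601718-20601967, plus strand), Aldh1a7 (chr19:20727557-20727806, minus strand), and Aldh8a1 (chr10:21377050-21377299, plus strand). The last is the second listed start of Adh5 (chr3:138442843-138443092, plus strand), with the GC box GGGCGG in capitals, here on the opposite strand as CCGCCC.
Aldh1a1: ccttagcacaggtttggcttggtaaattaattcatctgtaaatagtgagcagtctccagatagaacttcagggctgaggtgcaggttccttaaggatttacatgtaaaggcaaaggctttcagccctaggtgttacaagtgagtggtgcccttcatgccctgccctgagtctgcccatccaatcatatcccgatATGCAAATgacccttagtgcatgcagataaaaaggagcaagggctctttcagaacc
Aldh1a7: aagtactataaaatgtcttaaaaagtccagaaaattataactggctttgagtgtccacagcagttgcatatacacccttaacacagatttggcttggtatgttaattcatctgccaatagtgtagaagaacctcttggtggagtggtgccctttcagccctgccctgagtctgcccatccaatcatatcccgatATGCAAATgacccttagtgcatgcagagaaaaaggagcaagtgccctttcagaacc
Aldh8a1: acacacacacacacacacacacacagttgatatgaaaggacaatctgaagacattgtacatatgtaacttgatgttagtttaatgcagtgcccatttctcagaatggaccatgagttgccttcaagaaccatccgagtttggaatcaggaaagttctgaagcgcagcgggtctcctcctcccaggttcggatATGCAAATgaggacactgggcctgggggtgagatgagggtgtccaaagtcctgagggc
Adh5: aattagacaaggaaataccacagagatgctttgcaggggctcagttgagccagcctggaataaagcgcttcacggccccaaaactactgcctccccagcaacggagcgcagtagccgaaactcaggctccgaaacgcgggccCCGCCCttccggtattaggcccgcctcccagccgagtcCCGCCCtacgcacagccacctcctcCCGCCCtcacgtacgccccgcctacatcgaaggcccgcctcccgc

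The octamer, searched on both strands, was in 3 members' windows and in 1.6% of the 32851 RefSeq promoter windows of the same length. It lay 56 to 49 bases upstream in both Aldh1a1 and Aldh1a7, and 58 to 51 bases upstream in Aldh8a1. The Aldh1a1 and Aldh1a7 windows were 73.6% identical over 235 aligned bases, with an exact shared run of 65 bases around the octamer. The GC box was in 32.7% of all windows, and it occurred 3 times in the Adh5 window and once each in Aldh1b1, Aldh1l1, and Aldh3a2. The other motifs searched on both strands were TATAAA (12.4% of all windows; in Adh5 at its first listed start and Aldh1a7), GTTAAT (6.43%; Aldh1a7), and CCAAT (33.8%; Adh4, Aldh1a1, Aldh1a7, Aldh1l1, and Aldh3a2). These matches describe letters in the windows, and no binding was measured.

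The 3 alcohol dehydrogenases among the members fell, and Adh1, the class I enzyme for ethanol and retinol, had the lowest log2 fold change of the 3. Anti-CD40 mice 2, 5, and 9 had 212, 199, and 227 FPKM, and the control mice ranged from 575 to 1025 FPKM with a median of 901. The 3 treated mice were close together and far below the lowest control mouse, mouse 4, which stood apart from the other controls. The mean went from 866 ± 155 FPKM (SD, n = 6) down to 213 ± 14 (SD, n = 3), and the log2 fold change was -2.0 (SE 0.17, adjusted p = 9.3e-06). Adh4, the class II enzyme active on retinol and larger alcohols, was at 22, 22.3, and 17.6 FPKM after anti-CD40 and between 40.0 and 80.3 FPKM (median 58.4) in control mice. The groups did not overlap, and the mean was 35.7% of control (log2 fold change -1.45, SE 0.21, adjusted p = 2.89e-04). Adh5, the class III enzyme that clears formaldehyde bound to glutathione, was at 71.2, 79.5, and 67.7 FPKM after anti-CD40. Its control mice ranged from 119 to 175 FPKM (median 160), again with no overlap, and the mean fell to 48.6% of control (log2 fold change -1.03, SE 0.15, adjusted p = 3.58e-04). Adh5 was lower in every treated mouse than in any control mouse, as were Adh1 and Adh4. The cluster as a whole did not fall, since Adh7, outside the members, rose (log2 fold change 2.29).

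Aldh2, the mitochondrial enzyme that oxidizes most acetaldehyde, was at 237, 257, and 302 FPKM in anti-CD40 mice 2, 5, and 9. In control mice it ranged from 548 to 1039 FPKM with a median of 776, so the highest treated mouse was well below the lowest control mouse. The treated mean of 265 ± 33.2 FPKM (SD, n = 3) beside 807 ± 192 (SD, n = 6) was 32.9% of control (log2 fold change -1.58, SE 0.20, adjusted p = 1.32e-04). Aldh1b1, a related mitochondrial enzyme, was at 65.0, 71.0, and 78.7 FPKM after anti-CD40 and between 87.0 and 189 FPKM (median 104) in control mice. The groups came close without overlapping, and the mean was 59.2% of control (log2 fold change -0.70, SE 0.24, adjusted p = 0.0369). That call was lost when any 1 of the 3 anti-CD40 mice, or control mouse 3 or 4, was left out, with log2 fold changes from -0.78 to -0.56 over all the mice left out in turn.

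Aldh1a1, a cytosolic enzyme that makes retinoic acid from retinal, was at 238, 255, and 346 FPKM after anti-CD40. Control mice ranged from 349 to 946 FPKM (median 620), and anti-CD40 mouse 9 was only just below control mouse 4. The mean went from 677 ± 229 FPKM (SD, n = 6) down to 280 ± 57.9 (SD, n = 3), with a log2 fold change of -1.22 (SE 0.29, adjusted p = 0.00615). Aldh1a7, its neighbor on chromosome 19, was at 119, 118, and 140 FPKM after anti-CD40 and between 107 and 251 FPKM (median 147) in control mice. The treated mice lay inside the control range, and the log2 fold change was -0.28 (95% confidence interval -0.79 to 0.23, adjusted p = 0.346). This interval includes no change and also a decrease as large as that of Aldh1b1. The first-listed transcripts of Aldh1a1 and Aldh1a7 were 89.6% identical over their aligned bases. Over the last 500 bases, where 3′ reads fall, they were 82.2% identical with a longest exact run of 24 bases. How reads matching both genes were assigned is not given in the sources used here, so the split between the pair carries that uncertainty.

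Aldh1l1, the cytosolic enzyme that oxidizes 10-formyltetrahydrofolate and so releases a folate carbon as CO2, was at 27.0, 35.6, and 39.6 FPKM after anti-CD40. Control mice ranged from 82.4 to 171 FPKM (median 94.4), and every treated mouse was lower. The mean was 31.4% of control (log2 fold change -1.64, SE 0.23, adjusted p = 2.2e-04). Aldh3a2, the fatty aldehyde dehydrogenase of the endoplasmic reticulum, was at 21.3, 19.1, and 21.6 FPKM after anti-CD40 and between 44.9 and 84.8 FPKM (median 52.7) in control mice. The treated mice were tightly grouped below all controls, at 35.2% of the control mean (log2 fold change -1.46, SE 0.21, adjusted p = 3.25e-04). Aldh8a1, an enzyme placed in retinal oxidation and in the kynurenine pathway of tryptophan breakdown, was at 51.7, 48.7, and 55.5 FPKM after anti-CD40. Control mice were within 88.3 to 109 FPKM (median 93.4), the narrowest relative spread of any member in that group. The mean was 53.8% of control (log2 fold change -0.89, SE 0.10, adjusted p = 6.27e-05). Tested 1 gene at a time without adjustment, each of the 9 members that fell had a 2-sided exact permutation p of 0.0238, and Aldh1a7 had 0.31. The value 0.0238 is the smallest that 3 against 6 mice can give. It follows whenever the groups do not overlap, so it adds nothing to the separation already described.

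**Figure D1:**
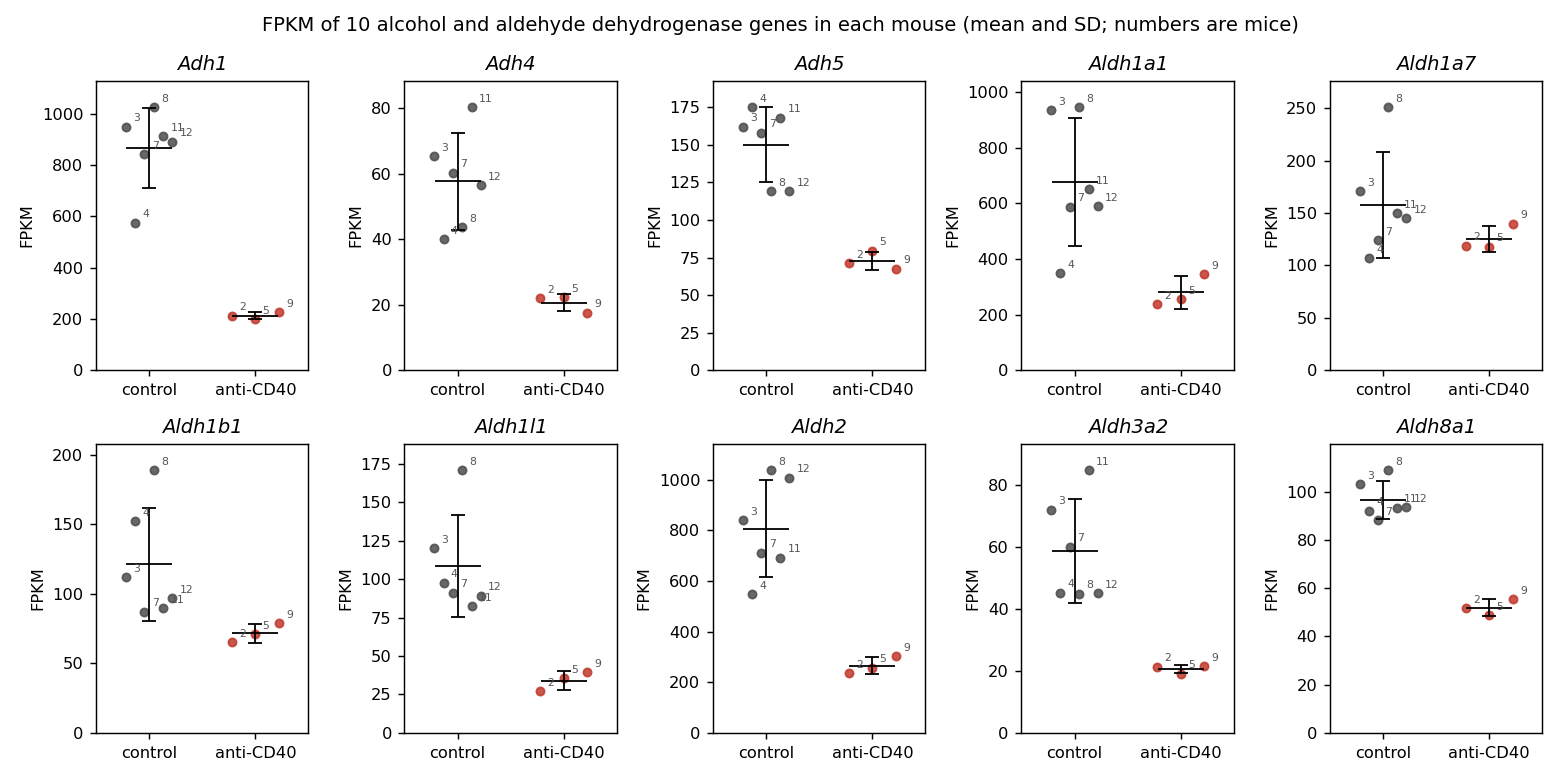
FPKM of each of the 10 members (vertical axes, linear from 0, separate for each gene) in the 3 anti-CD40 mice and 6 control mice. Points are single mice and bars are the mean and SD, and Aldh1a7 is the panel in which the groups overlap.

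Among themselves, members did not rank the mice alike. Control mouse 4 was the lowest control for Adh1, Adh4, Aldh1a1, Aldh1a7, and Aldh2, and the highest for Adh5. Control mouse 8 was the highest control for 7 of the 10 members. Within the treated group, mouse 9 was the highest for 8 members. The coefficient of variation ran from 6.49% to 20.7% over members in the treated group and from 8.11% to 33.9% in the control group. The summed FPKM of the members was 1065 to 1295 after anti-CD40 and 2181 to 3938 in control mice, without overlap.

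Whether related members fell by different amounts was addressed with the log2 ratio of 2 genes within each mouse, which does not depend on how a mouse was scaled. In all, 5 such pairs were compared, and none had a p under 0.05 after Benjamini-Hochberg adjustment over the 5 pairs. The smallest exact permutation p for 3 against 6 mice is 0.0238. A pair at that value cannot on its own pass this adjustment, however large its difference. The ratio of Aldh1a1 to Aldh1a7 was 1.0, 1.12, and 1.3 on the log2 scale in anti-CD40 mice 2, 5, and 9, and 1.70 to 2.45 in control mice. The groups did not overlap, and the difference was -0.94 (2-sided exact permutation p = 0.0238, adjusted p = 0.0595). The ratio of Adh1 to Adh5 was 2.53 ± 0.48 (SD, n = 6) in control mice and 1.55 ± 0.21 (SD, n = 3) in treated mice. That difference of -0.98 had an exact permutation p of 0.0476 (adjusted p = 0.0595), and control mouse 4, at 1.72, lay within the treated range. Adh1 to Adh4 differed by -0.55 and Adh1 to Aldh2 by -0.43, with the same exact permutation p of 0.0476 and adjusted p of 0.0595. Aldh2 to Aldh1b1 differed by -0.88 (exact permutation p = 0.0952, adjusted p = 0.0952), and control mouse 4, at 1.85, was again level with the treated mice. All 5 differences kept their direction with each mouse left out.

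**Figure D2:**
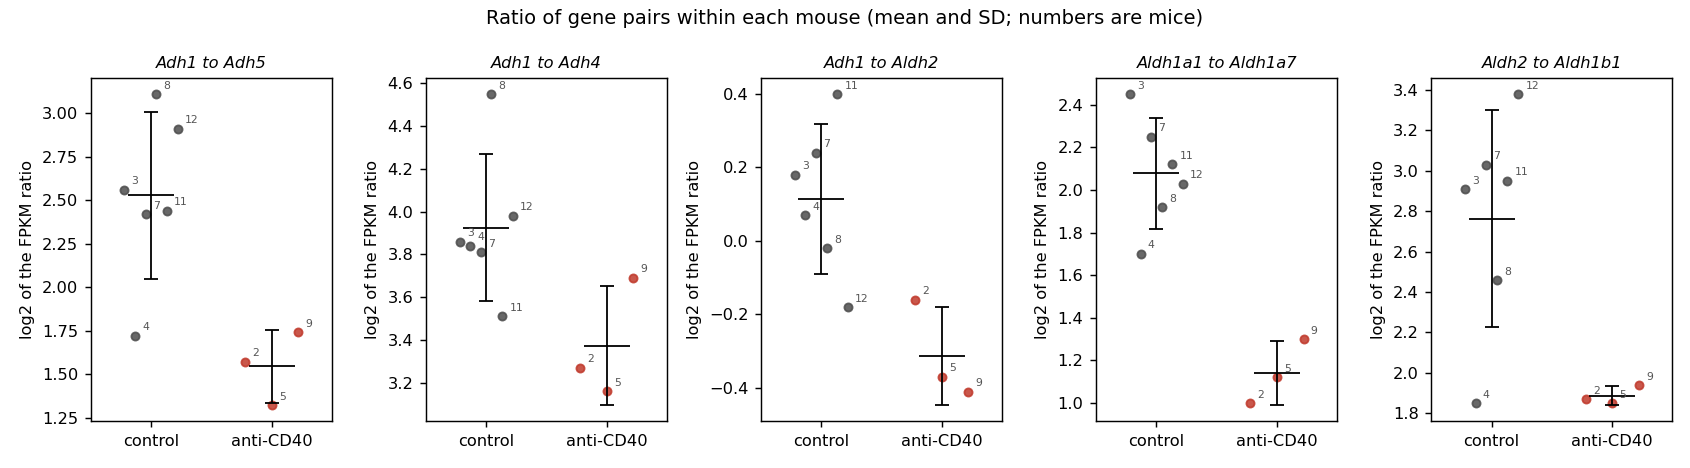
Log2 ratio of FPKM between 2 members in the same mouse, for 5 pairs (vertical axis, log2 units), with each of the 3 anti-CD40 and 6 control mice as a point and the mean and SD of each group. The Aldh1a1 to Aldh1a7 ratio is the pair whose groups do not overlap, at 1.0 to 1.3 after anti-CD40 and 1.70 to 2.45 in control mice.

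The rest of the Adh and Aldh families did not move in 1 direction. Of 18 further family genes in the table, 14 were tested, of which 7 fell, 4 rose, and 3 were not called, with a median log2 fold change of -0.60. Over all genes tested, 21.7% were called lower and 23.5% higher, so the genes that rose were near the share of all genes. Aldh7a1, the lysine-pathway enzyme antiquitin, went from 70.7 to 16.8 mean FPKM (log2 fold change -2.05), and Aldh4a1, of proline breakdown, from 131 to 39.5 (log2 fold change -1.73). Aldh5a1 of GABA breakdown (-1.27), Aldh16a1 (-1.22), Aldh6a1 of valine breakdown (-1.15), Aldh9a1 of carnitine synthesis (-1.09), and the pseudogene Adh6-ps1 (-0.78) fell as well, on the log2 scale. The call of Adh6-ps1 was lost after rescaling without Saa1, Saa2, and Saa3 (-0.41, adjusted p = 0.0864). Adh7, the class IV enzyme known best from stomach and its retinol activity, rose from 4.79 ± 0.368 (SD, n = 6) to 24.0 ± 3.72 FPKM (SD, n = 3), a log2 fold change of 2.29 (adjusted p = 6.66e-07). Aldh3b1, which acts on lipid-derived aldehydes, rose from a mean FPKM of 1.61 to 6.21 (log2 fold change 1.91). Aldh18a1, of proline synthesis, rose from 0.122 to 0.472 mean FPKM (log2 fold change 1.37).

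Aldh3b3 rose from 0.518 to 0.888 mean FPKM (log2 fold change 0.73, adjusted p = 0.0491), though its groups overlapped and 12 of 19 alternatives did not call it, counting an adjusted p threshold of 0.01 among them. Adhfe1, Aldh1a3, and Aldh1a2 had log2 fold changes of -0.43, -0.09, and 0.17 and were not called. Adh6a, Aldh1l2, Aldh3a1, and Aldh3b2 were below the filter. The table gives Adh7, Adhfe1, Aldh4a1, Aldh5a1, Aldh6a1, Aldh7a1, and Aldh16a1 a position shared with another gene, so reads from either gene may be counted there. The largest changes in both directions thus included genes of this kind, whereas each of the 10 members had its position alone.

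**Figure D3:**
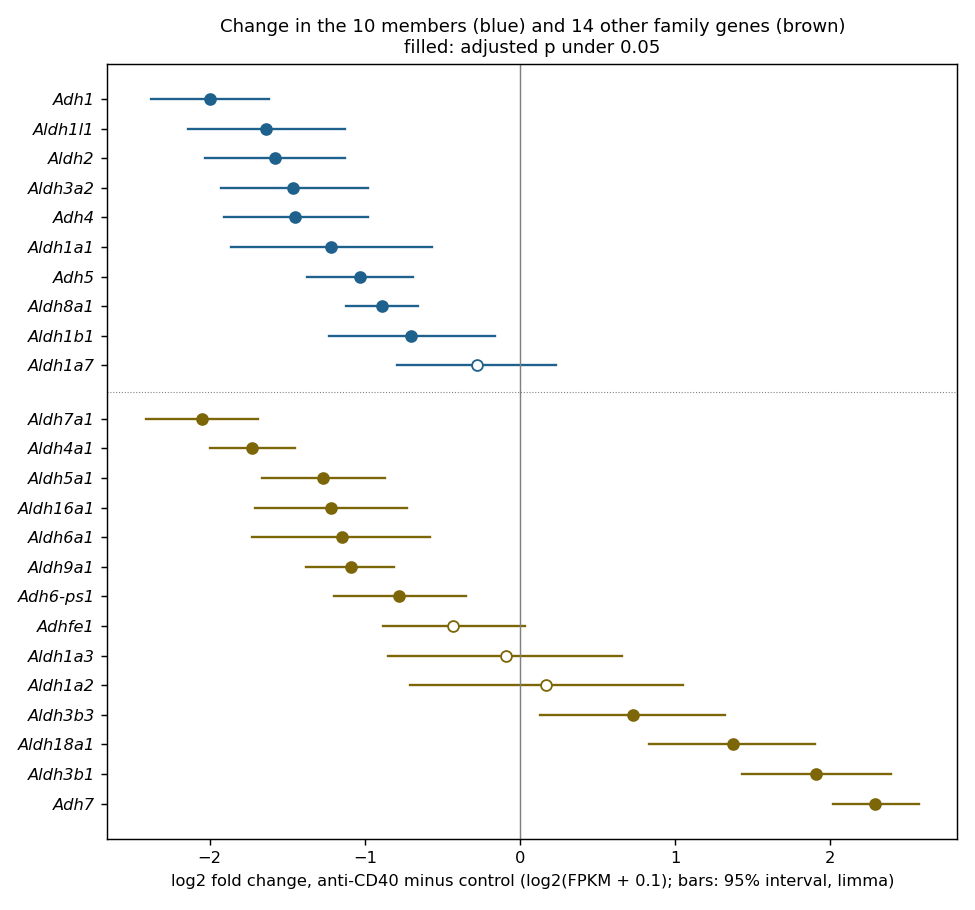
Log2 fold change, anti-CD40 against control, of the 10 members and the 14 other Adh and Aldh genes tested (horizontal axis), with 95% confidence intervals from limma. Values run from -2.05 for Aldh7a1 to 2.29 for Adh7, and 9 of the 10 members lie below 0 with their whole interval.

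Genes that act beside the members in the same pathways were counted in lists, to be read beside the 21.7% lower and 23.5% higher of all genes tested. Of 7 tested partners in ethanol and acetate handling, 5 fell and 1 rose. Cyp2e1, the microsomal ethanol oxidase, went from 1419 ± 404 to 267 ± 124 FPKM (log2 fold change -2.49), and Cat, the peroxisomal catalase that can also oxidize ethanol, from 1335 ± 98.2 to 470 ± 4.99 (log2 fold change -1.50; SD, n = 6 and 3). Acss2, the cytosolic enzyme that activates acetate, fell by 2.59 on the log2 scale, and Ces1d, a carboxylesterase, fell by 3.08. Acss1, the mitochondrial acetate-activating enzyme, rose by 1.59 from a low level of 0.318 mean FPKM. Acsl1 was not analysed here.

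Of 24 tested retinoid genes, 12 fell, 2 rose, and 10 were not called. Rdh16 (-2.16) and Rdh11 (-1.82), which interconvert retinol and retinal as Adh1 and Adh4 do, had the largest decreases by log2 fold change. Rdh12, of the same function, rose by 1.51 from 0.0656 mean FPKM, and Bco1, which cleaves beta-carotene to retinal, rose by 0.66. The retinoic acid receptors Rara, Rarb, and Rarg were not called, with log2 fold changes of -0.11, -0.21, and 0.07. Of the 21 carbonyl reductases and aldehyde oxidases, which share aldehyde substrates with the members, 15 fell, 2 rose, and 4 were not called. Akr1c20 (-2.71) and Akr1c19 (-2.66) fell on the log2 scale, and Cbr3 (2.04) and Akr1b8 (1.67) rose.

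Of the 18 tested folate one-carbon genes around Aldh1l1, 10 fell, 4 rose, and 4 were not called. Sardh (-2.13), which breaks down sarcosine, and Gnmt (-2.10), which makes it from glycine, fell on the log2 scale. Mthfd2 and Mthfd1l, mitochondrial enzymes that produce formate, rose from 1.11 to 8.73 and from 0.608 to 4.57 mean FPKM (log2 fold changes 2.96 and 2.80). Of 10 tested kynurenine genes around Aldh8a1, 7 fell, 1 rose, and 2 were not called. Afmid (-2.59) and Haao (-2.05) fell on the log2 scale. Ido1, which opens the pathway outside the hepatocyte, was at the table's floor of 0.01 FPKM in all control mice and at 0.294 ± 0.0467 FPKM (SD, n = 3) after anti-CD40. Of 10 tested genes of fatty aldehyde and alcohol metabolism around Aldh3a2, 5 fell, 3 rose, and 2 were not called, with Pecr (-2.36) and Hacl1 (-1.43) the lowest and Far1 (2.07) and Acer2 (1.17) the highest log2 fold changes. Of the pathway genes named, Acss1, Acss2, Afmid, and Far1 share their position in the table with another gene, so their values carry the same caution as those of Adh7 and Aldh7a1.

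**Figure D4:**
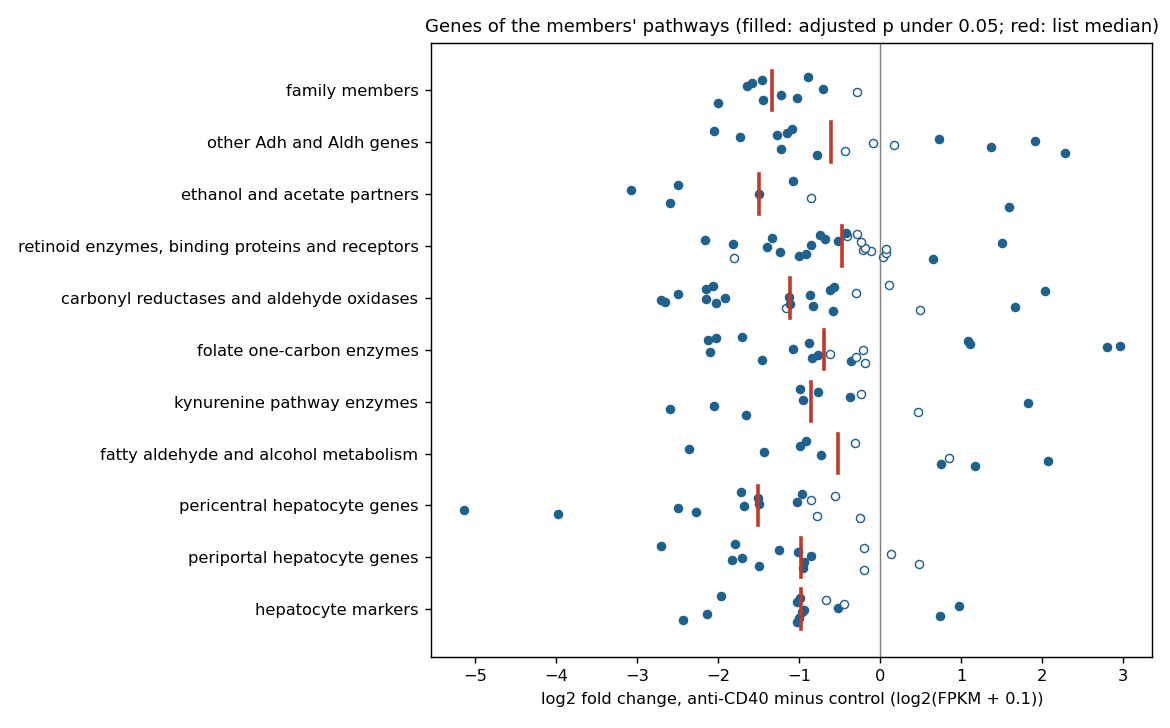
Log2 fold changes, anti-CD40 against control, of the tested genes of each list (horizontal axis), 1 point per gene, with the list median as a line. The member median is -1.33, and the medians of the related pathway lists run from -1.50 for ethanol and acetate partners to -0.47 for retinoid genes. Those of the zonal lists are -1.51 for genes near the central vein and -0.98 for genes near the portal vein.

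Other hepatocyte genes also fell, where 21.7% of all genes tested were called lower. Of 14 hepatocyte markers, 10 fell, 2 rose, and 2 were not called, with a median log2 fold change of -0.97, and their summed FPKM was 16569 to 20931 after anti-CD40 and 33504 to 69323 in control mice. Alb, which encodes albumin, went from 5040 to 933 mean FPKM. Among genes known from hepatocytes near the central vein, 10 of 14 fell (median -1.51), among them Cyp2c50 (-5.14) and Cyp1a2 (-3.98). Among those known from hepatocytes near the portal vein, also 10 of 14 fell (median -0.98), among them Sult5a1 (-2.70) and Cyp2f2 (-1.83). No gene rose in either zonal list. In bulk liver, fewer hepatocytes and less RNA per hepatocyte cannot be told apart.

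Markers of other cells moved with treatment too, where 23.5% of all genes tested were called higher and 21.7% lower. All 9 tested neutrophil markers were higher, with a summed FPKM of 4220 to 5207 after anti-CD40 and 18.4 to 156 in control mice, and Mpo and Elane were below the filter. Of 12 monocyte and macrophage markers 9 were higher and 1, Adgre1, was lower (338 to 460 against 49.3 to 85.7 summed FPKM). Adgre1, which encodes the macrophage antigen F4/80, went from 5.36 to 1.75 mean FPKM (log2 fold change -1.49, adjusted p = 0.00209). Of 10 T and NK cell markers 9 were higher (19.8 to 25.1 against 4.44 to 7.42), as were all 6 B cell markers (33.2 to 46.0 against 2.58 to 7.82). All 8 Kupffer cell markers were lower (41.2 to 51.2 against 293 to 471), and the endothelial (90.5 to 104 against 96.6 to 128) and stellate cell and fibroblast sums (240 to 273 against 225 to 345) overlapped. Of 10 endothelial markers 4 were lower and 2 higher, and of 12 stellate cell and fibroblast markers 2 were lower and 5 higher. Of 7 tested cholangiocyte markers, 2 were higher (69.7 to 101 against 11.2 to 20.7). None of 6 tested erythroid markers was called (4176 to 14320 against 7494 to 50532, the highest in control mouse 4), and 1 of 11 pancreatic acinar markers was higher (28.2 to 1351 against 71.2 to 190, the highest in anti-CD40 mouse 5). Hba-a1 and Amy2a5 of those lists were at the floor in all mice. The acute-phase genes Saa1, Saa2, and Saa3 took 25.4% to 25.9% of summed FPKM after anti-CD40 and 0.0449% to 0.380% in control mice. Rescaling without Saa1, Saa2, and Saa3 moved the median of all genes to 0.35. On that scale 11.9% of all genes tested were called lower. There 8 members were called lower, with Adh1 at -1.64, Aldh2 at -1.21, Adh5 at -0.66, and Aldh8a1 at -0.53. Without rescaling, these genes had log2 fold changes of -2.0, -1.58, -1.03, and -0.89. Aldh1b1 (-0.33) and Aldh1a7 (0.09) were not called after that rescaling. The part of the cell marker shifts in the members' lower values was not tested.

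How far the members fell relative to hepatocyte markers was measured by rescaling each mouse to the mean log2 level of those 14 markers, an alternative chosen after the data were seen. That level differed from the control mean by -1.09, -0.85, and -0.72 on the log2 scale in anti-CD40 mice 2, 5, and 9. The markers themselves ranged from -2.43 for Alb to 0.98 for Fga. Their mean therefore averages opposed changes and does not measure the number of hepatocytes. The rescaling moved the median of all genes to 0.89, so that the values below are relative to hepatocyte markers and not to all genes. Of all genes tested, 4.24% were called lower on that scale, and 5 members were among them: Adh1 (-1.12, adjusted p = 2.23e-04), Aldh1l1 (-0.76, adjusted p = 0.0193), Aldh2 (-0.69, adjusted p = 0.0046), Aldh3a2 (-0.57, adjusted p = 0.0494), and Adh4 (-0.57, adjusted p = 0.0366). Adh5 (-0.14), Aldh1a1 (-0.33), and Aldh8a1 (-0.01) were not called, and Aldh1b1 was on the other side of 0 at 0.18. Aldh1a7 was called higher there, at 0.60 (adjusted p = 0.0344). The 5 members called lower on that scale were called lower in each of the 19 alternative fits, and 8 of the 10 members were called lower in all fits but this one.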

How the data were processed

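Liver RNA from 9 mice was sequenced with QuantSeq 3′. Per the submitters' processing notes, STAR, Cufflinks, and Cuffdiff were used with the mm10 build. The FPKM values deposited by the authors have 0.01 as their lowest value, and FAIL marks failed estimates. The annotation, the treatment of multiply mapped reads, and the filters were not given in the sources used here. Depth is unknown, so no counting interval was computed, and genes above the floor numbered 14684 to 15545 per mouse.

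The 15 genes with FAIL were left out, leaving 24326, and 13807 with a mean FPKM of at least 0.1 were tested as log2(FPKM + 0.1) in R 4.3.3 by limma 3.58.1, using lmFit and a trended eBayes fit with a treatment term alone. Tests were 2-sided, with Benjamini-Hochberg adjustment over all of these genes at 0.05. Fold changes on this scale understate changes of low genes. Within-mouse ratios and single genes were tested with exact permutation over the 84 splits of 9 mice into 3 and 6. Python 3.11.15 with numpy 2.4.6, pandas 2.3.3, scipy 1.17.1, and matplotlib 3.10.9 was used for the rest. The limma fit was tested on simulated data.

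The members and lists were chosen with earlier results of these data known. Named genes were the members, the other Adh and Aldh genes, and from each pathway or zonal list the 2 highest and 2 lowest log2 fold changes among called genes with separate groups. Cyp2e1, Cat, the retinoic acid receptors, and markers such as Alb and Adgre1 were named in addition, after their values were seen. Alternatives were other pseudocounts, filters, scalings, eBayes settings, and thresholds, and leaving out each mouse. Rescaling to hepatocyte markers was added after the data were seen. Mouse numbers come from the labels.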

Additional observations from a re-analysis of the deposited data

Results flagged for a closer look

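In each gene or ratio the 6 control mice were searched for a mouse far from the rest, by dividing the gap between the extreme mouse and its neighbor by the range of the group on the log2 scale, and compared with Dixon's 95% critical value for 6 samples. Of 29 genes and ratios examined, 2 passed, and chance gives about 1 in 20. For Adh1, control mouse 4 was the lowest at 575 FPKM, with a ratio of 0.662, and without it the log2 fold change was -2.12. For Aldh3b3, control mouse 12 was the highest at 0.989 FPKM, with a ratio of 0.803. No cause was tested for either.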

How the results depend on the processing

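No paired analysis was possible because the groups share no mouse numbers. Of the 10 members, 5 were called lower and 1 higher after rescaling to hepatocyte markers, in place of 9 and 0, and of the other family genes 2 were called lower. With a filter of mean FPKM of at least 1, 2 of the other family genes were called higher. Without each mouse in turn, 8 to 9 members were called lower and 0 higher, and 7 to 8 other family genes were called lower and 3 to 4 higher. An adjusted p under 0.01 left 8 members lower, and a fold of at least 2 left 7.

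Signs turned for Aldh1a7 (0.15 with quantile normalization, 0.60 after hepatocyte rescaling, 0.09 after rescaling without Saa1, Saa2, and Saa3), Aldh1b1 (0.18), Adh6-ps1 (0.11), and Adhfe1 (0.46), the last 3 after hepatocyte rescaling. Aldh1a2 turned to -0.26 with quantile normalization and -0.08 without anti-CD40 mouse 5, within a range of -0.08 to 0.44 over the mice left out. Aldh1a3 turned to 0.79 after hepatocyte rescaling, 0.15 without Saa, 0.18 without anti-CD40 mouse 5, and 0.08 without control mouse 4, within a range of -0.24 to 0.18 over the mice left out. Aldh1b1 also lost its call with no filter, with quantile normalization, and without Saa, and Adh6-ps1 without Saa. The cause was not tested.

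Over all genes, 2990 were called lower and 3240 higher. The split was 1649 and 5596 without Saa, which moved the median of all genes to 0.35, and 586 and 9294 after hepatocyte rescaling. The related pathway lists together with both zonal lists held 73 lower and 13 higher calls, and 58 to 73 and 10 to 16 in the alternatives run. Depth is unknown, so precision rests on the number of mice, and low genes such as Aldh18a1 are the least certain.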
